A study of Mus musculus with 10 samples.

Results

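The genes described here carry out mitosis: 36 genes for the kinases and cyclins that start it, the spindle checkpoint, the kinesin motors, the kinetochore, chromosome condensation and cytokinesis. They were taken from a list of symbols by function. Of the 36 genes, 35 had a probe set that the array annotation gives to that symbol alone, and these are 35 of the 19938 named genes in the table. Ccnb1, a cyclin partner of Cdk1, was not analysed here. For Top2a, which had 2 such probe sets, the one with the higher mean was used, and the remaining 34 genes had a single probe set.

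The cells were mesenchymal stromal cells (MSC), the adherent stromal cells that grow out of bone marrow in culture. There were 5 preparations, MSC I to MSC V, all from the marrow of female C57BL/6J mice aged 6 to 8 weeks, grown in MesenCult medium to passage 16 to 17. No allele, agent or time point separates them, and no untreated or reference group was included. Each preparation was measured on 2 single-colour arrays, called replicate 1 and replicate 2, and the labels do not say whether the 2 came from separate cultures, so p-values describe the scatter of these arrays only, and that scatter may be technical. The comparison asked how far preparations of one kind of cell, from one strain, sex and age, differ from each other.

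Cells enter mitosis when Cdk1, bound to A- and B-type cyclins, becomes active; Aurora and Polo kinases then build the spindle, the checkpoint holds the cell until every chromosome is attached, and the APC/C with its activator Cdc20 lets the chromosomes part. Transcripts of these genes are low in resting and G1 cells and peak in G2 and mitosis, so that their sum is widely used as a readout of dividing cells. In promoters of this class the DREAM and MMB-FOXM1 complexes act through a short element called CHR, often with CCAAT boxes upstream. In bulk RNA, fewer dividing cells and less RNA per dividing cell cannot be told apart, and this holds for every level given here.

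All values are log2 expression levels, so that a difference of 1 is a factor of 2. Array medians ran from 6.45 to 6.63 over the 10 arrays. In all 35399 probe sets the mean of the 5 replicate 1 arrays equalled the mean of the 5 replicate 2 arrays within 0.0001, so no difference between replicate numbers can be measured in these values, and the 5 within-preparation differences of a gene add up to 0. The fit therefore has 4 residual degrees of freedom with a replicate term and 5 without, which is 1 too many, and counts from the fit with the replicate number as a block are given beside the others. All 5 endothelial and both erythroid markers were under the table's median of 6.55 on every array, as were 6 of the 8 macrophage and leukocyte markers. The mean level of these 8 was 5.82 and 5.92 in MSC V and between 5.35 and 5.60 on the other 8 arrays. The other 2 of them, Cd14 and Cd68, differed more. Their median deviation from their own means was 1.15 and 0.92 in MSC V, against -0.77 to 0.44 on the other 8 arrays. The part of these markers in the results was not tested. The 13 stromal markers ranged from 5.44 to 12.93, and their mean on an array from 9.04 to 9.74.

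Mitosis genes were high or low together across the arrays. They were high on both MSC I arrays, on replicate 2 of MSC III and on replicate 1 of MSC V, low on both MSC IV arrays and on replicate 1 of MSC II, and closer to their own average on the remaining 3. The median deviation of the 35 genes from their own means was 0.92 and 1.02 on the 2 MSC I arrays, -1.36 and -0.24 in MSC II, -0.01 and 0.89 in MSC III, -0.62 and -1.68 in MSC IV, and 1.09 and -0.08 in MSC V. The same median over all 10971 genes tested stayed between -0.03 and 0.02. The preparation mean was highest in MSC I for 28 of the 35 genes, in MSC V for 4 and in MSC III for 3. It was lowest in MSC IV for 30 and in MSC II for 5.

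**Figure D1:**
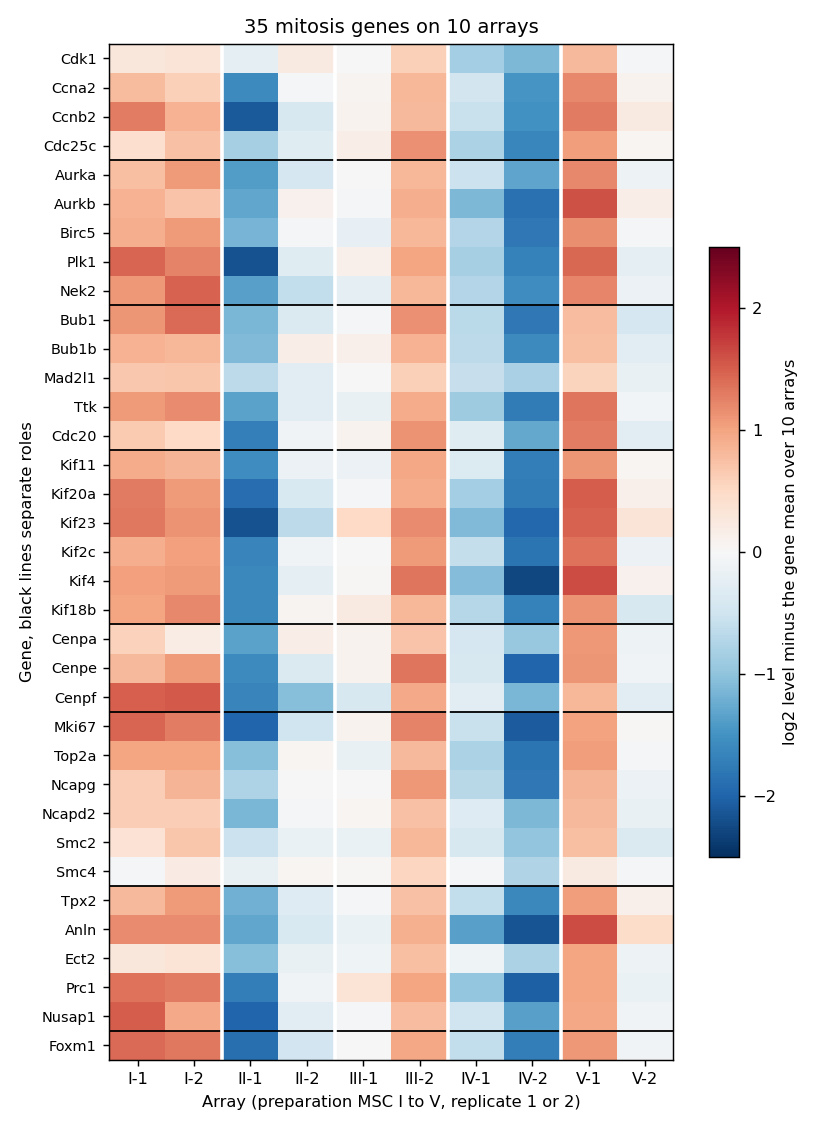
Level of each of the 35 mitosis genes (rows, grouped by role) on each of the 10 arrays (columns, preparation and replicate), as log2 level minus the gene's mean over the arrays; red is higher and blue lower. The MSC I columns are red for nearly all genes, with a median of 0.92 and 1.02, and MSC IV replicate 2 is the bluest column, with a median of -1.68.

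Across the 5 preparations, 21 of the 35 genes were called different in the fit without a replicate term. The call rested on the moderated F statistic of limma, adjusted over all genes by the Benjamini-Hochberg method, and on a range of preparation means of at least 1. Over all genes the same call was made for 29.1%. The median range of preparation means was 2.25, a factor of 4.75, against 0.75 over all genes, a factor of 1.68. Anln, a cytokinesis scaffold, had the largest range, 2.94, with an adjusted p of 0.0099 in this F test, and the condensin subunit Smc4 had the smallest, 0.66. With the replicate block the F test called 5 of the 35 genes (Anln, Cenpf, Kif23, Mad2l1 and Prc1) and 24.8% of all genes. The members' share was then below that of all genes. Without replicate 1 or replicate 2 of MSC I it called 2, and without MSC IV replicate 2 it called 3.

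In the accounts of single genes that follow, each call lost with the replicate block is marked. Both MSC I arrays lay above all 8 others for 15.1% of all genes, and both MSC IV arrays below all 8 others for 12.1%. These shares stand beside each such pattern named below. Among the genes that start mitosis, Cdk1, the kinase itself, set MSC IV apart. Its levels, replicate 1 first here and in all that follows, were 11.57 and 11.62 in MSC I, 11.07 and 11.53 in MSC II, 11.28 and 11.90 in MSC III, 10.45 and 10.18 in MSC IV, and 12.10 and 11.25 in MSC V. Both MSC IV arrays lay below all 8 others, while the remaining preparations overlapped. The mean of MSC IV was lower than that of the other four by a log2 difference of -1.23 (SE 0.25, limma adjusted p = 0.0092). Ccnb2, a B-type cyclin that partners Cdk1, was spread more widely, with 12.41 and 11.998 in MSC I, 9.03 and 10.73 in MSC II, 11.22 and 11.95 in MSC III, 10.57 and 9.63 in MSC IV, and 12.43 and 11.35 in MSC V. The lowest array was replicate 1 of MSC II, 1.71 under its own replicate 2. Ccnb2 differed over the preparations in the F test (adjusted p = 0.037, lost with the block) and was higher in MSC I than in MSC II by 2.32 (SE 0.62, limma adjusted p = 0.022). Cdc25c, the phosphatase that activates Cdk1, ranged from 5.91 in MSC IV replicate 2 to 8.69 in MSC III replicate 2, and was lower in MSC IV by a difference of -1.51 (SE 0.36, limma adjusted p = 0.0172). Ccna2, the A-type cyclin of S phase and early mitosis, ranged from 9.44 to 12.23 and passed none of these tests.

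The 5 mitotic kinases and passenger proteins were each lower on both MSC IV arrays than on either MSC I array, a pattern of 36.2% of all genes. Plk1, the Polo kinase that drives centrosome maturation and spindle assembly, read 11.66 and 11.45 in MSC I, 8.03 and 9.92 in MSC II, 10.35 and 11.21 in MSC III, 9.39 and 8.53 in MSC IV, and 11.65 and 9.97 in MSC V. MSC V replicate 1 reached the MSC I level while its replicate 2 lay 1.68 lower, so MSC I and MSC V overlapped. Plk1 was higher in MSC I than in the other four by 1.68 (SE 0.57, limma adjusted p = 0.0469), a call lost with the replicate block. Nek2, a centrosome kinase, gave 9.26 and 9.65 in MSC I, 6.81 and 7.57 in MSC II, 7.95 and 9.01 in MSC III, 7.45 and 6.62 in MSC IV, and 9.39 and 8.02 in MSC V. Only replicate 1 of MSC V came between the 2 MSC I values. Nek2 was called in both directions: higher in MSC I by 1.60 (SE 0.43, limma adjusted p = 0.0204) and lower in MSC IV by a difference of -1.42 (SE 0.43, limma adjusted p = 0.0397, lost with the block). Aurkb, the kinase of the chromosomal passenger complex, ranged from 8.17 in MSC IV replicate 2 to 11.63 in MSC V replicate 1, and Birc5, the survivin subunit of that complex, from 6.26 to 9.23 on the same arrays. In MSC IV, Aurkb was lower by a difference of -1.87 (SE 0.48, limma adjusted p = 0.0228) and Birc5 by -1.58 (SE 0.46, limma adjusted p = 0.0345, lost with the block). Aurka, the spindle pole kinase, ranged from 8.51 to 11.11 and was called in the F test (adjusted p = 0.0465) and in MSC I against MSC II, both lost with the block, and in MSC I against MSC IV.

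Of the checkpoint genes, Mad2l1 had the smallest replicate spread relative to its differences. Mad2l1 encodes the protein that holds the APC/C inactive at unattached kinetochores, and its levels were 12.82 and 12.82 in MSC I, 11.48 and 11.86 in MSC II, 12.13 and 12.74 in MSC III, 11.55 and 11.31 in MSC IV, and 12.70 and 11.94 in MSC V. Both MSC I arrays lay above all 8 others. The difference from the other four was 0.85 (SE 0.23, limma adjusted p = 0.0202), below the minimum of 1 required for a call, and the difference between MSC I and MSC IV was 1.39 (SE 0.29, limma adjusted p = 0.007). Bub1, a checkpoint kinase, read 11.22 and 11.54 in MSC I, 8.99 and 9.77 in MSC II, 10.08 and 11.26 in MSC III, 9.44 and 8.34 in MSC IV, and 10.89 and 9.71 in MSC V. The highest 3 arrays were the 2 of MSC I and replicate 2 of MSC III. Bub1 was higher in MSC I by 1.57 (SE 0.45, limma adjusted p = 0.0247) and lower in MSC IV by a difference of -1.54 (SE 0.45, limma adjusted p = 0.0337, lost with the block). Ttk, the kinase also called Mps1, was called in both as well, with differences of 1.40 and -1.65, both calls lost with the block. Bub1b, the BubR1 subunit of the checkpoint complex, was called only in MSC IV among the comparisons with the other four, with a difference of -1.41 (lost with the block), and had an adjusted p of 0.0739 in MSC I. Cdc20 ranged from 7.28 to 10.25 and passed no test.

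The 6 kinesin motors were each lower on both MSC IV arrays than on either MSC I array, as were 36.2% of all genes. Kif23, which bundles the central spindle for cytokinesis, read 10.86 and 10.67 in MSC I, 7.38 and 8.90 in MSC II, 10.04 and 10.73 in MSC III, 8.44 and 7.60 in MSC IV, and 11.03 and 9.87 in MSC V. Both MSC II arrays and both MSC IV arrays lay below all others. Kif23 was higher in MSC I by 1.51 (SE 0.45, limma adjusted p = 0.0298), lower in MSC IV by a difference of -1.92 (SE 0.45, limma adjusted p = 0.0165) and lower in MSC II by a difference of -1.76 (SE 0.45, limma adjusted p = 0.0322, lost with the block). Kif4, a chromosome-bound motor, spanned the most of any member, from 5.64 in MSC IV replicate 2 to 9.54 in MSC V replicate 1, and was lower in MSC IV by a difference of -2.10 (SE 0.55, limma adjusted p = 0.0246). Kif20a, a motor that carries passenger proteins to the midzone, ranged from 8.60 to 12.03 and was called in MSC I and in MSC IV, with differences of 1.47 and -1.62, both calls lost with the block. Kif11, the motor that pushes spindle poles apart, the microtubule depolymerase Kif2c, and Kif18b passed the test only between MSC I and MSC IV, by 1.92, 2.19 and 2.28; the calls of Kif11 and Kif2c were lost with the block.

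At the centromere, Cenpf, a kinetochore protein, separated MSC I most clearly. Its levels were 9.21 and 9.24 in MSC I, 6.07 and 6.65 in MSC II, 7.32 and 8.67 in MSC III, 7.44 and 6.57 in MSC IV, and 8.54 and 7.44 in MSC V. Both MSC I arrays stood above all others and differed from each other by 0.03, while MSC II held the lowest array. Cenpf was higher in MSC I by 1.89 (SE 0.42, limma adjusted p = 0.0096) and lower in MSC II by a difference of -1.70 (SE 0.42, limma adjusted p = 0.0283, lost with the block). In MSC IV its difference was -0.89 (adjusted p = 0.1386), so it was not among the genes called there. Cenpe, the kinetochore motor, ranged from 6.41 to 9.73 and was called only between MSC I and MSC IV (2.13, lost with the block). Cenpa, the centromeric histone variant, ranged from 9.01 to 11.43 and passed no test.

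Chromosome structure genes held both wide and narrow members. Mki67, the proliferation antigen that coats mitotic chromosomes, gave 11.51 and 11.35 in MSC I, 8.07 and 9.57 in MSC II, 10.15 and 11.31 in MSC III, 9.51 and 7.98 in MSC IV, and 11.07 and 10.10 in MSC V. Both MSC I arrays were above all 8 others, with replicate 2 of MSC III close behind. The difference in MSC I was 1.71 (SE 0.54, limma adjusted p = 0.0355, lost with the block); in MSC IV it was -1.65 (adjusted p = 0.0502), short of the threshold. Top2a, the topoisomerase that untangles sister chromosomes, ranged from 8.61 to 11.49 and was lower in MSC IV by a difference of -1.64 (SE 0.43, limma adjusted p = 0.0255). Its other probe set ranged only from 7.12 to 8.36, with its lowest value on the same array. The condensin subunit Ncapg was lower in MSC IV by a difference of -1.56 (SE 0.41, limma adjusted p = 0.0253), while Ncapd2 and Smc2 passed no test, with MSC IV differences of -0.91 and -0.86. Smc4 was nearly level, with 11.26 and 11.49 in MSC I, 11.10 and 11.34 in MSC II, 11.31 and 11.83 in MSC III, 11.27 and 10.54 in MSC IV, and 11.52 and 11.25 in MSC V. Only replicate 2 of MSC IV stood away from the rest.

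Among spindle assembly and cytokinesis genes, Anln read 11.44 and 11.43 in MSC I, 8.96 and 9.88 in MSC II, 10.08 and 11.15 in MSC III, 8.90 and 8.10 in MSC IV, and 11.89 and 10.71 in MSC V. Both MSC IV arrays lay below the others, although replicate 1 of MSC II came close, and the 2 MSC I arrays lay between those of MSC V. Anln was lower in MSC IV by a difference of -2.19 (SE 0.41, limma adjusted p = 0.0069) and higher in MSC I by 1.48 (SE 0.41, limma adjusted p = 0.0235). Prc1, the central spindle bundler, read 10.48 and 10.44 in MSC I, 7.40 and 9.03 in MSC II, 9.48 and 10.12 in MSC III, 8.17 and 7.10 in MSC IV, and 10.11 and 8.97 in MSC V. Both MSC I arrays were above all others, with differences of 1.66 in MSC I (SE 0.48, limma adjusted p = 0.0271) and -1.87 in MSC IV (SE 0.48, limma adjusted p = 0.0228). Tpx2, the activator of Aurora A, was called in both as well (1.18, lost with the block, and -1.39). Nusap1, a microtubule-binding protein, was called in MSC I (1.55, adjusted p = 0.0369, lost with the block) and had an adjusted p of 0.1065 in MSC IV. Ect2, the exchange factor that places the cleavage furrow, ranged from 8.97 to 11.02 and passed no test.

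Foxm1, the transcription factor that drives many of these genes in G2, varied with them. Its levels were 10.68 and 10.57 in MSC I, 7.38 and 8.78 in MSC II, 9.24 and 10.22 in MSC III, 8.63 and 7.52 in MSC IV, and 10.34 and 9.17 in MSC V. Both MSC I arrays exceeded the other 8, and MSC II and MSC IV overlapped at the bottom. The difference in MSC I was 1.71 (SE 0.48, limma adjusted p = 0.0242) and in MSC IV it was -1.47 (adjusted p = 0.0507), which missed the threshold.

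**Figure D2:**
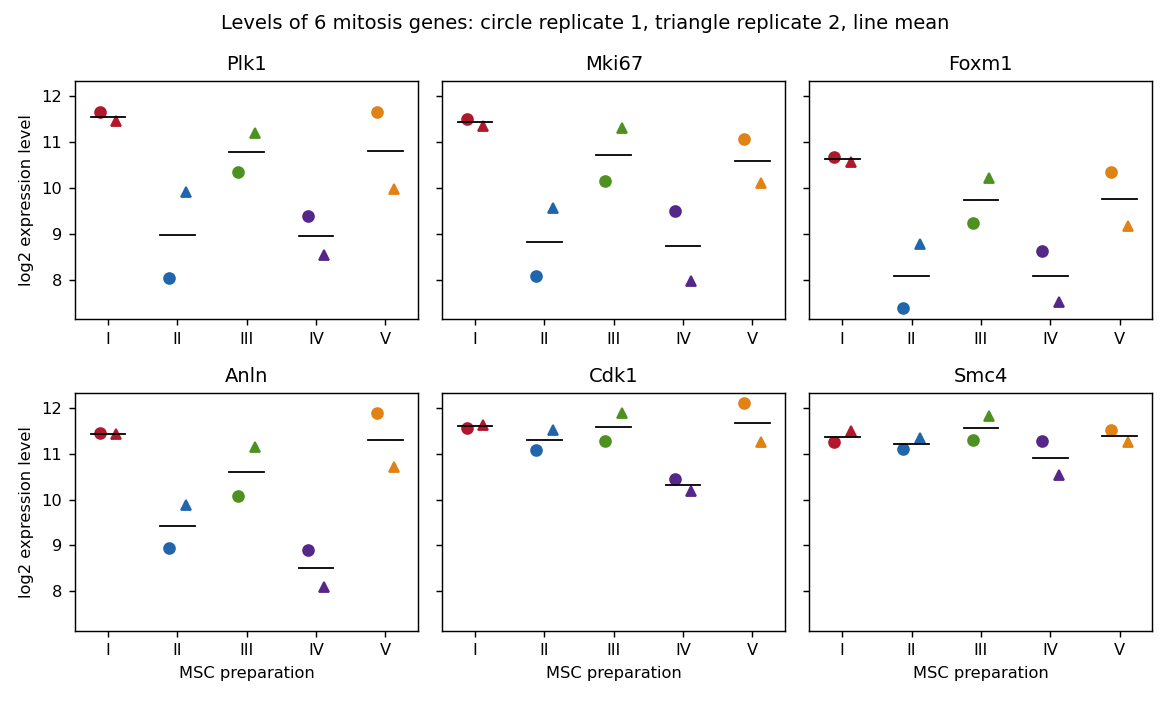
Log2 level (vertical axis) of Plk1, Mki67, Foxm1, Anln, Cdk1 and Smc4 in the 5 preparations (horizontal axis); circles are replicate 1, triangles replicate 2 and lines preparation means. The 2 MSC I arrays nearly coincide in Plk1, Mki67, Foxm1 and Anln, Cdk1 is set apart in MSC IV, and Smc4 stays between 10.54 and 11.83.

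MSC I against the mean of the other four had all 35 differences above 0, with a median of 1.21, a factor of 2.31, against -0.03 over all genes tested. 13 genes were called higher: Cenpf, Nek2, Anln, Foxm1, Bub1, Prc1, Kif23, Mki67, Tpx2, Nusap1, Ttk, Plk1 and Kif20a. The share of all genes called higher was 7.73%. By role these were 4 of the 5 spindle assembly and cytokinesis genes, 2 of 5 kinases and passenger proteins, 2 of 5 checkpoint genes, 2 of 6 kinesins, 1 of 3 kinetochore genes, 1 of 6 chromosome structure genes, and Foxm1, while the 4 cyclin and Cdk1 genes had differences of 0.38 to 1.34. With the replicate block 7 were called (Anln, Bub1, Cenpf, Foxm1, Kif23, Nek2 and Prc1), with 7.45% of all genes called higher. The count was 0 without either MSC I array, 6 without MSC III replicate 1, 7 without MSC IV replicate 2, 20 without MSC V replicate 1, and 0 when the arrays of a preparation were averaged first (1 gene at an unadjusted p under 0.05 in limma). For counts at an unadjusted p, here and below, the share of all genes was not computed. The median difference was 1.26 without MSC I replicate 1 and 1.16 without its replicate 2, close to that with all arrays. Both MSC I arrays exceeded all 8 others for 5 of the 35 genes (Mad2l1, Cenpf, Mki67, Prc1 and Foxm1). That share was no higher than the 15.1% of all genes that showed this pattern.

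MSC IV lay on the opposite side. All 35 differences from the mean of the other four were below 0, with a median of -1.47, a factor of 2.78, against 0.01 over all genes. 16 genes were called lower: Anln, Cdk1, Kif23, Cdc25c, Aurkb, Prc1, Kif4, Ncapg, Top2a, Tpx2, Ttk, Bub1, Birc5, Bub1b, Nek2 and Kif20a. Over all genes 7.7% were called lower. Here 2 of the 4 cyclin and Cdk1 genes were called, while the 3 kinetochore genes had differences from -0.86 to -1.49. Mad2l1 passed the adjusted p (0.0239) with a difference of -0.88, under the minimum. The replicate block left 10 genes (Anln, Aurkb, Cdc25c, Cdk1, Kif23, Kif4, Ncapg, Prc1, Top2a and Tpx2), with 7.16% of all genes called lower. The count was 0 without MSC IV replicate 2, 10 without either MSC I array, 25 without MSC II replicate 1, and 0 with averaged arrays (9 genes at an unadjusted p under 0.05 in limma). Both MSC IV arrays lay below all 8 others for Cdk1 and Anln, a smaller share of the 35 genes than the 12.1% of all genes. 8 genes were called in MSC I and in MSC IV, and of these only Anln, Kif23 and Prc1 were called in both with the block. The 2 contrasts share all 10 arrays, and the share of all genes called in both was not computed. The median difference was -0.92 without MSC IV replicate 2 and -1.98 without its replicate 1.

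Some other genes also differed in MSC IV, and of these Xist differed in MSC V as well. Their part in the result was not tested. The mean of the 13 stromal markers was 9.43 and 9.32 in MSC IV, inside the range of the other arrays. But 4 of them, picked after their values were seen, stood away, in both directions. The rest of the 13 are not given here. Vcam1, an adhesion molecule, read 7.03 and 6.46 in MSC IV against 9.48 to 11.11 on the other 8 arrays, and the chemokine Cxcl12 9.51 and 9.25 against 11.98 to 12.93. Eng (CD105) read 9.69 and 9.50 against 5.57 to 5.85, and Nt5e (CD73) 10.75 and 11.66 against 5.77 to 8.27. So Eng, a defining stromal marker, was under the table's median in the other four preparations. Xist, the RNA of the inactive X chromosome, read 9.62 to 10.47 in MSC IV and MSC V against 12.13 to 12.58 in the other 3 preparations, and 3 Y-linked genes were under the table's median on every array.

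**Figure D3:**
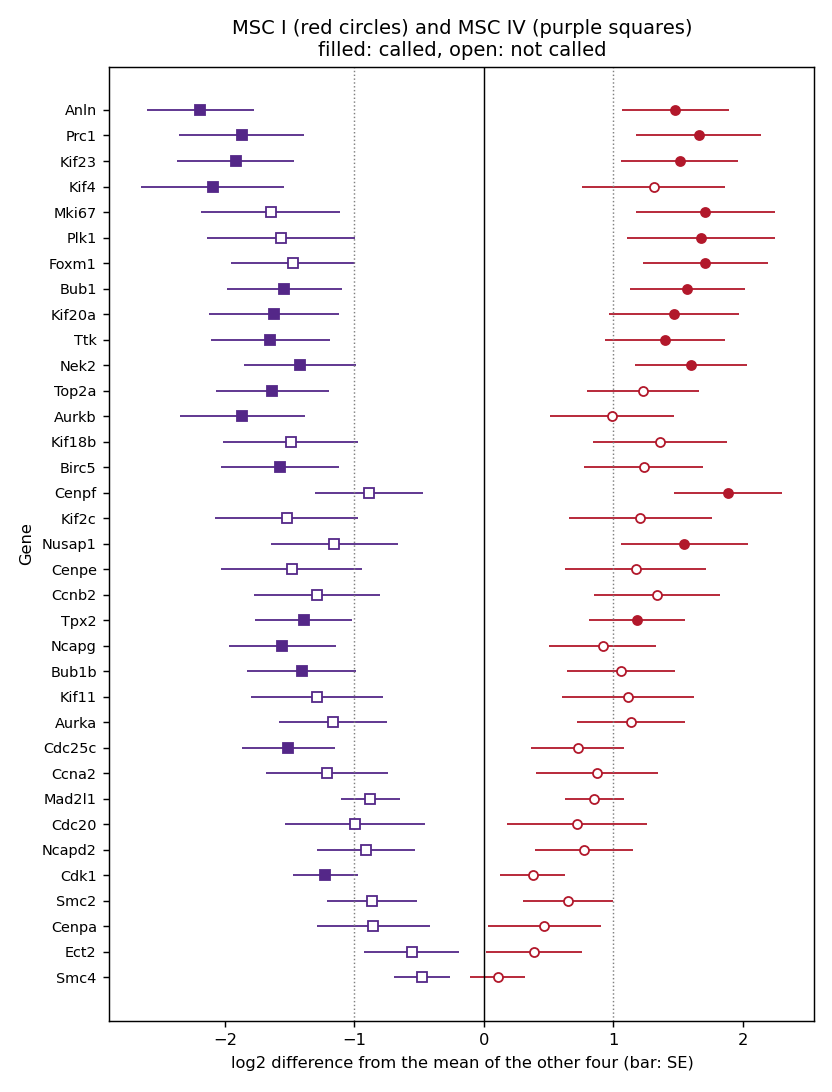
Log2 difference of MSC I (red circles) and MSC IV (purple squares) from the mean of the other four preparations for each of the 35 genes, with bars of 1 standard error; filled symbols were called and dotted lines mark a difference of 1. All MSC I values lie to the right of 0, from 0.11 (Smc4) to 1.89 (Cenpf), and all MSC IV values to the left, from -0.48 (Smc4) to -2.19 (Anln).

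The other 3 preparations gave few calls. In MSC II, 34 of 35 differences were below 0, with a median of -1.02 (-0.39 without its replicate 1 and -1.61 without its replicate 2). Kif23 and Cenpf were called lower, where 2.69% of all genes were; neither was called with the replicate block, where 2.22% of all genes were, or without an MSC I array. In the same comparison 14 genes had an unadjusted p under 0.05, a count with no share of all genes to set it against. There were 0 calls when MSC II replicate 1 was left out, 1 when either MSC III replicate 2 or MSC IV replicate 1 was, and 4 when MSC V replicate 2 was. MSC III had a median of 0.53 and MSC V of 0.64, with all 35 differences above 0 in each. 1 array carried each of these medians: that of MSC III was 0.09 without its replicate 2 and 1.00 without its replicate 1, and that of MSC V was 0.03 without its replicate 1 and 1.21 without its replicate 2. By limma no gene was called in either, where 1.31% and 2.11% of all genes were called higher; 0 genes in MSC III and 2 in MSC V had an unadjusted p under 0.05.

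Between pairs of preparations, 59 of 350 gene and pair combinations were called, and 42 with the replicate block. The share of all genes called in the direction of most members is given with each pair. The largest count was between MSC I and MSC IV. There 28 genes were higher in MSC I, with a median difference of 2.16, a factor of 4.48, where 12.3% of all genes were called higher. The 7 not called were Ncapd2, Ccna2, Smc2, Cdc20, Cenpa, Smc4 and Ect2. Between MSC I and MSC II the count was 16 (median 1.82, against 8.11% of all genes). With the block these counts were 25 and 14, and the shares of all genes 11.8% and 7.54%. In these 2 pairs the arrays did not overlap for 34 genes each, where 36.2% and 33.4% of all genes were higher without overlap. MSC IV was lower than MSC V for 10 genes (7.46% of all genes; 3 genes with the block, against 6.06%) and lower than MSC III for 4, namely Anln, Cdc25c, Cdk1 and Kif23 (5.52% of all genes; 0 with the block, against 4.15%). Kif23 was also lower in MSC II than in MSC V, the only member called in that pair (3.21% of all genes). That call was lost with the block (0 genes, against 2.21%) and without either MSC I array, MSC II replicate 1, either MSC III array or MSC V replicate 1. These counts moved when single arrays were left out. Leaving out an array also changes the spread estimated from all arrays and its degrees of freedom. Counts therefore moved for pairs without that array too. The left-out counts, here and above, have no share of all genes beside them. The count between MSC I and MSC IV was 3 without MSC IV replicate 2, and 8 or 10 without replicate 1 or replicate 2 of MSC I. Between MSC I and MSC II it was 1 without MSC II replicate 1, 2 without either MSC I array and 24 without MSC II replicate 2. It was 0 for MSC IV and MSC V without MSC IV replicate 2 or MSC V replicate 1, 4 without MSC IV replicate 1 and 5 without either MSC I array. For MSC III and MSC IV it ranged from 0 (without replicate 2 of either) to 7 (without an MSC V array). The call between MSC I and MSC IV held for Anln, Kif23 and Mad2l1 whichever single array was left out, and that between MSC I and MSC II for Cenpf. No pair among MSC I, MSC III and MSC V, and neither MSC II against MSC III nor MSC II against MSC IV, had a member called by limma. In these 5 pairs (MSC I with III, I with V, III with V, II with III, II with IV) some of all genes were called. Their shares in the direction of most members were 6.44, 6.1, 1.04, 1.51 and 5.9%. In the same order 1, 1, 0, 15 and 1 members had an unadjusted p under 0.05 in limma. The share of all genes at that unadjusted threshold was not computed.

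The 2 arrays of 1 preparation differed in these genes about as much as some preparations did. In MSC I they agreed: the median difference, replicate 2 minus replicate 1, was 0.0037, from -0.57 (Nusap1) to 0.39 (Nek2). In MSC II all 35 genes were higher on replicate 2, by a median of 1.24 (a factor of 2.36), from 0.24 for Smc4 to 1.88 for Plk1. MSC III had all 35 higher on replicate 2 as well, with a median of 0.98. In MSC IV and MSC V all 35 were lower on replicate 2, with medians of -0.89 and -1.15. A difference of at least 1 was seen for 0, 22, 13, 12 and 29 genes in MSC I to MSC V, where 2.53, 3.36, 1.91, 2.7 and 3.95% of all genes reached it. Because a gene's 5 differences add up to 0 in this table, their directions are relative to each other and only their inequality is a measurement. The median absolute difference over all genes was between 0.16 and 0.21 in every preparation. The median replicate SD was 0.697 for the mitosis genes and 0.180 for all genes tested. Kinesins differed most between the MSC II arrays (median 1.53) and the 9 housekeeping genes by 0.06 in absolute value.

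**Figure D4:**
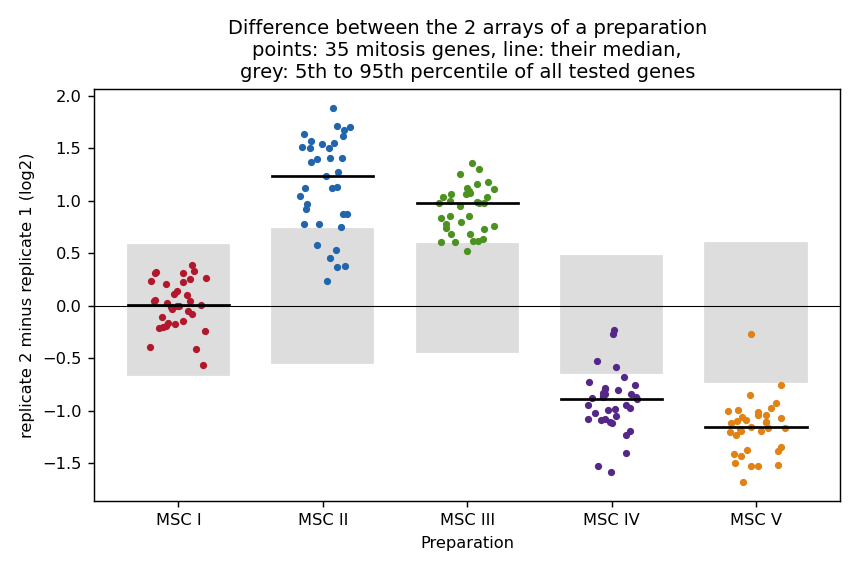
Replicate 2 minus replicate 1 (log2, vertical axis) in each preparation (horizontal axis): points are the 35 genes, the line their median, and the grey box the 5th to 95th percentile of all 10971 genes tested. The points straddle 0 in MSC I and lie wholly to one side of it in the other four, with medians of 1.24, 0.98, -0.89 and -1.15.

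The genes rose and fell together over the arrays, but by unlike amounts. The correlation of each gene with the mean of the other members over the 10 arrays ran from 0.804 (Smc4) to 0.996 (Kif2c) and exceeded 0.9 for 33 of 35; as a description this rests on 10 arrays in 5 pairs. The slope on that mean was steepest for Kif23 (1.40), Kif4 (1.35), Mki67 (1.33) and Plk1 (1.32). It was shallowest for Smc4 (0.27), Cdk1 (0.52), Mad2l1 (0.59), Smc2 (0.59) and Ect2 (0.59). The single highest array was MSC V replicate 1 for 18 genes, MSC I replicate 2 for 6, MSC III replicate 2 for 6 and MSC I replicate 1 for 5. The lowest was MSC IV replicate 2 for 22 and MSC II replicate 1 for 13, so 2 arrays held every minimum.

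Promoter sequence was a feature the gene list did not use. In the RefSeq windows of mouse assembly GRCm38.p6, from 250 bases before to 50 after the start, 28 of the 35 genes had an entry; Ccna2, Cdc25c, Aurkb, Kif20a, Smc4, Tpx2 and Foxm1 had none. The windows below show 6 of the 8 genes called in both MSC I and MSC IV, with Plk1 and Ccnb2 added for comparison; each runs from 100 bases before the start to 50 after it. Capitals mark the CHR element (TTTGAA or its reverse complement TTCAAA) and CCAAT boxes (CCAAT or ATTGG).
Kif23 (chr9:61946750-61946899, minus strand): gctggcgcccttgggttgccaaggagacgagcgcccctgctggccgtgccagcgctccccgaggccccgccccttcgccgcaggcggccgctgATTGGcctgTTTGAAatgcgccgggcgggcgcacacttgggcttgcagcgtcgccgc
Prc1 (chr7:80294351-80294500, plus strand): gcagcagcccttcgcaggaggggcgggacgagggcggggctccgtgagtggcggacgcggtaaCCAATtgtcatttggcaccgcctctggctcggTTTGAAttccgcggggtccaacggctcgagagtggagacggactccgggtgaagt
Anln (chr9:22389157-22389306, minus strand): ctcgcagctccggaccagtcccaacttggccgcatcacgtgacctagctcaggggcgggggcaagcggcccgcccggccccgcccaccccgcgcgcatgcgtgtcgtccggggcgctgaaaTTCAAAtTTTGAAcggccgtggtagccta
Ttk (chr9:83834589-83834738, plus strand): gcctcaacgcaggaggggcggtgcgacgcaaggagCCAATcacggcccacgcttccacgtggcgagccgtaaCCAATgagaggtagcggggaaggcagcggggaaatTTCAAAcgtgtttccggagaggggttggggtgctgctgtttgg
Plk1 (chr7:122159335-122159484, plus strand): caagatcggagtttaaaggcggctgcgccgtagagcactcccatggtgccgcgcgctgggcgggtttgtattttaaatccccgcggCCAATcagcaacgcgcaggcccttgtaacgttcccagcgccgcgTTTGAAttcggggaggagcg
Ccnb2 (chr9:70421505-70421654, minus strand): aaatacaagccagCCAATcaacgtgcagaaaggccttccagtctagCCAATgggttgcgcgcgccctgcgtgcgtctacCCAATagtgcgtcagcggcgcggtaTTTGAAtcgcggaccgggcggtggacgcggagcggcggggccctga
Nek2 (chr1:191821373-191821522, plus strand): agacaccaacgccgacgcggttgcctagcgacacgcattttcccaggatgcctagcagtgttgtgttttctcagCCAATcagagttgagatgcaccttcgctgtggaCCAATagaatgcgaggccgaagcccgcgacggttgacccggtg
Bub1 (chr2:127831810-127831959, minus strand): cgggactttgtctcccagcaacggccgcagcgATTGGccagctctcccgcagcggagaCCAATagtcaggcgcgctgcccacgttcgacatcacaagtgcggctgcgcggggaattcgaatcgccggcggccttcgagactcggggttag

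Counting the start as base 1, the CHR letters of Kif23 begin at base 3 with a CCAAT box just before it, in Prc1 they begin 5 bases before the start, and in Ccnb2 at base 5, below 3 CCAAT boxes. Anln holds 2 CHR matches, on opposite strands and 1 base apart, and no CCAAT box. Nek2 and Bub1 hold 2 CCAAT boxes each and no CHR match in the 300-base window. TTTGAA, on either strand, was present in 22 of 28 promoters (78.6%), against 18.1% of all 27025 RefSeq promoters in the table and 11.6% of the 8795 promoters of genes tested. Within 30 bases before to 50 after the start it was present in 19 of 28 (67.9%), against 3.79% of all. CCAAT was present in 23 of 28 (82.1%) against 37.9%, and both together in 20 (71.4%) against 7.12%. The variant TTTAAA was found in 7 of 28 against 13.2%, and an E2F-type motif (the letters TTGGCGC, in other forms TTCGCGC and also TTCCCGC) in 5 (17.9%) against 8.21% of all promoters and 15.4% of those of genes tested, which is near the members' share. Among promoters of genes tested, CCAAT was in 39.2%, both motifs in 4.86%, TTTAAA in 8.96%, and TTTGAA near the start in 2.39%. Some matches of different motifs may overlap, and a match is a description of letters, not of a bound site. The 22 genes with TTTGAA had a median range of preparation means of 2.23, and the 6 without it 2.31.

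Outside the 36 genes, those whose levels followed the members' mean most closely over the 10 arrays were Depdc1a (r = 0.993), Fam83d, Troap, Nuf2, Prr11, Hyls1, Gtse1, Tacc3, Kif22, Racgap1, Knstrn and Nsl1 (0.981), out of 5853 genes with a standard deviation of at least 0.3. Of these 12, 8 belonged to a second list of 69 mitosis genes, among them Nuf2, a subunit of the NDC80 kinetochore complex, and Racgap1, the partner of Kif23. That list held 67 of the 5853 candidates, and it was chosen with earlier results of these data known. The median correlation was 0.944 for that list, 0.882 for S phase and replication genes and 0.0738 for all candidates.

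The rest of the cell cycle shared the pattern in part. Of the 69 other mitosis genes, 21 were called higher in MSC I and 33 lower in MSC IV, with medians of 0.85 and -1.22; the block left 15 and 18. The 44 S phase and replication genes had 3 called higher in MSC I (2 with the block) and 20 lower in MSC IV (18 with the block), with medians of 0.38 and -1.01. Over all genes the shares were 7.73% higher in MSC I and 7.7% lower in MSC IV, so the S phase count in MSC I was near the background. On the MSC I arrays the S phase median deviation was 0.16 and 0.46, where that of the 35 members was 0.92 and 1.02, and on the MSC IV arrays it was -0.62 and -1.04. These medians were not tested against each other. The 7 G1 cyclins and kinases had medians of -0.18 in MSC I and 0.03 in MSC IV. Of 24 cell cycle inhibitors and repressors, 3 were called higher in MSC I and 4 lower in MSC IV, the same counts as with the block, with medians of 0.11 and -0.14, beside the same shares over all genes. The 9 housekeeping genes had medians of -0.11 and -0.02.

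**Figure D5:**
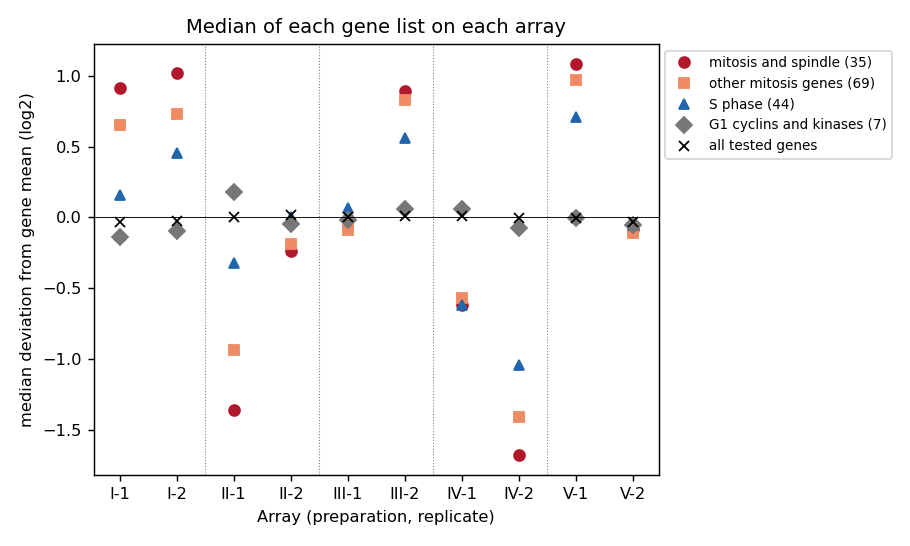
Median deviation from each gene's own mean (log2, vertical axis) on the 10 arrays (horizontal axis) for the 35 mitosis genes, 69 other mitosis genes, 44 S phase genes, 7 G1 cyclins and kinases, and all genes tested. Mitosis genes run from -1.68 in MSC IV replicate 2 to 1.09 in MSC V replicate 1, S phase genes from -1.04 to 0.71 on the same arrays, and all genes tested stay between -0.03 and 0.02.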

How the data were processed

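Total RNA of 5 MSC preparations was labelled with biotin and hybridised to single-colour arrays. The deposited values are log2 expression levels of 35399 probe sets, made by the authors with RMA and Partek per the submitters' processing notes (their versions are not stated); the RMA method corrects background, equalises array distributions and compresses low values. Groups and replicate numbers came from the titles. Genes were tested where at least 2 arrays exceeded the table's median. The tests used lmFit and eBayes of limma 3.58.1 (R 4.3.3) on the 10 single arrays, with 1 term for each preparation. Calls need a Benjamini-Hochberg adjusted p under 0.05 over 10971 genes and a log2 difference of at least 1 (for the F test, a range of means). The replicate 2 minus replicate 1 test is void, since the means are equal. Whether replicate numbers pair the arrays could not be checked, because the equal means would have removed a shared replicate effect. All members were named, with the 12 genes of highest correlation and members of the other lists. Members and lists were chosen with earlier results of these data known. Alternatives were other filters, probe set averaging, median centring, quantile normalisation, eBayes with trend, the replicate block, averaged arrays and leaving out each array. Scripts were tested on simulated data (Python 3.11.15).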

Additional observations from a re-analysis of the deposited data

How the results depend on the processing

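No called result of the members changed direction under the alternatives run. Of 1873 recomputed results 0 reversed, 400 lost their call, 34 counts moved and 1439 were kept. In many of these settings the direction could not change. Dropping the low-value filter, eBayes with trend, the replicate block and averaged arrays all leave the members' differences as they were. Probe set averaging can alter only Top2a among the members. An array left out alters no difference of a pair without it. Kept calls stayed on their side of the threshold, and kept counts within 1.5 times. The 1439 also hold every median of the members, kept where it moved by less than 1 replicate SD of the members' mean. By this rule the MSC III median was kept at 0.09 without its replicate 2, against 0.53. That of MSC V was kept at 0.03 without its replicate 1, against 0.64. The void replicate 2 minus replicate 1 test, with 0 calls in every setting, is among the 1439 too. Without the low-value filter, where more genes are tested, the counts of members called were 4 in the F test, 5 in MSC I, 0 in MSC II, 7 in MSC IV and 38 over the pairs, and the filter at the 75th percentile left 1 in MSC II. Averaging the 2 arrays of a preparation first, which leaves fewer samples, gave 0 in MSC I, MSC II and MSC IV, with 1, 0 and 9 members at an unadjusted p under 0.05. Leaving out single arrays gave 2 to 25 in the F test, 0 to 20 in MSC I, 0 to 4 in MSC II, 0 to 25 in MSC IV and 17 to 73 over the pairs, against 21, 13, 2, 16 and 59 with all arrays. Probe set averaging, median centring, quantile normalisation and eBayes with trend kept each count within 1.5 times.

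With the replicate number as a block, the counts were 5 in the F test, 7 in MSC I, 0 in MSC II and 10 in MSC IV. Because the replicate means are equal, the block left the differences as they were. It changed only the residual degrees of freedom, from 5 to 4, and the spread estimated with them. Replicate differences correlated from -0.555 to 0.203 between preparations, but the equal replicate means lower these correlations, so they do not show whether the numbers pair the arrays. With 2 arrays per preparation, precision is limited by their number, and levels near the table's median are compressed.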
